A study of Mus musculus with 30 samples.

Results

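The ADAMTS metalloproteases followed here were 10 genes, Adamts1, Adamts2, Adamts4, Adamts5, Adamts7, Adamts8, Adamts9, Adamts10, Adamts12 and Adamts15, of the 21689 genes named on the array. They were taken by the gene name given with each probe, and the family had been chosen by its log ratios in these same 15 groups, so those ratios, and the counts of members called that follow from them, are given as a description, with no p for a member. The 10 genes were covered by 23 of the 33453 probes with a gene name, 3 probes for each of Adamts2, Adamts8, Adamts9, Adamts10 and Adamts12, 2 for each of Adamts1, Adamts5 and Adamts7, and 1 each for Adamts4 and Adamts15.

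ADAMTS proteins are secreted zinc metalloproteases that carry thrombospondin motifs and act on the extracellular matrix, the meshwork of collagens and proteoglycans that fibroblasts lay down. Adamts1, Adamts4, Adamts5, Adamts8, Adamts9 and Adamts15 belong to the group that cleaves proteoglycans such as versican and aggrecan. Adamts2 removes the amino-terminal propeptide of fibrillar procollagens, Adamts7 and Adamts12 cleave cartilage oligomeric matrix protein, and Adamts10 is linked to fibrillin microfibrils.

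The cells were immortalised mouse embryonic fibroblasts (MEFs), wild type or p38α-/-, the latter lacking the stress-activated protein kinase p38α that Mapk14 encodes. Wild type MEFs were stressed with 25 ng/ml anisomycin for 45 min, with 100 ng/ml TNFα for 45 min, or with 100 mM NaCl for 45 min, 2 h or 8 h, each with and without SB203580, an inhibitor of p38α and p38β, and 1 further wild type group had the inhibitor and no stress. Cultures without p38α were left untreated or received anisomycin for 45 min, TNFα for 45 min or NaCl for 2 h, and no p38α-/- group received SB203580. Total RNA of each group was hybridised on 2 arrays from independent experiments, 30 arrays in all, the sample carrying Cy5 and a common reference, pooled from 2 wild type cultures without treatment, carrying Cy3. The treatment protocol gives SB203580 as 10 µM for 30 min before the stress, whereas the sample titles give 10 mM for 2 h. The wild type and p38α-/- lines are not described as more than 1 line each, so genotype and line cannot be told apart.

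All values below are log2 ratios of a sample to the pool, where 1 stands for 2-fold more RNA in the sample and 0 for no difference, and levels are not compared between probes. The pool was the only control, its own spread is not measured, and no dyes were swapped, so a dye effect of a probe enters every ratio to the pool and cancels only in differences between groups. In RNA of a whole culture, a transcript present in more cells and one present at a higher level per cell cannot be told apart. Of the spots on an array, from 6.78% to 44.8% (median 16.0%) were marked as outliers by the scanner software, and 81.1% to 96.8% lay well above background in Cy5. Mapk14 lay below the pool on 6 of 6 p38α-/- arrays that measured it, from -2.24 to -0.94, and above it on 16 of 16 wild type arrays. The 14 fibroblast markers looked for lay well above background on all 30 arrays, but so did 2 of 2 epithelial, 3 of 4 endothelial, 5 of 5 blood cell and 3 of 3 muscle markers on the array, so that flag did not separate cell types. The arrays fall into 4 scan batches, with all 11 wild type arrays numbered 1 in 1 batch and all wild type arrays numbered 2 in a batch with the 4 p38α-/- arrays numbered 1.

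**Figure D1:**
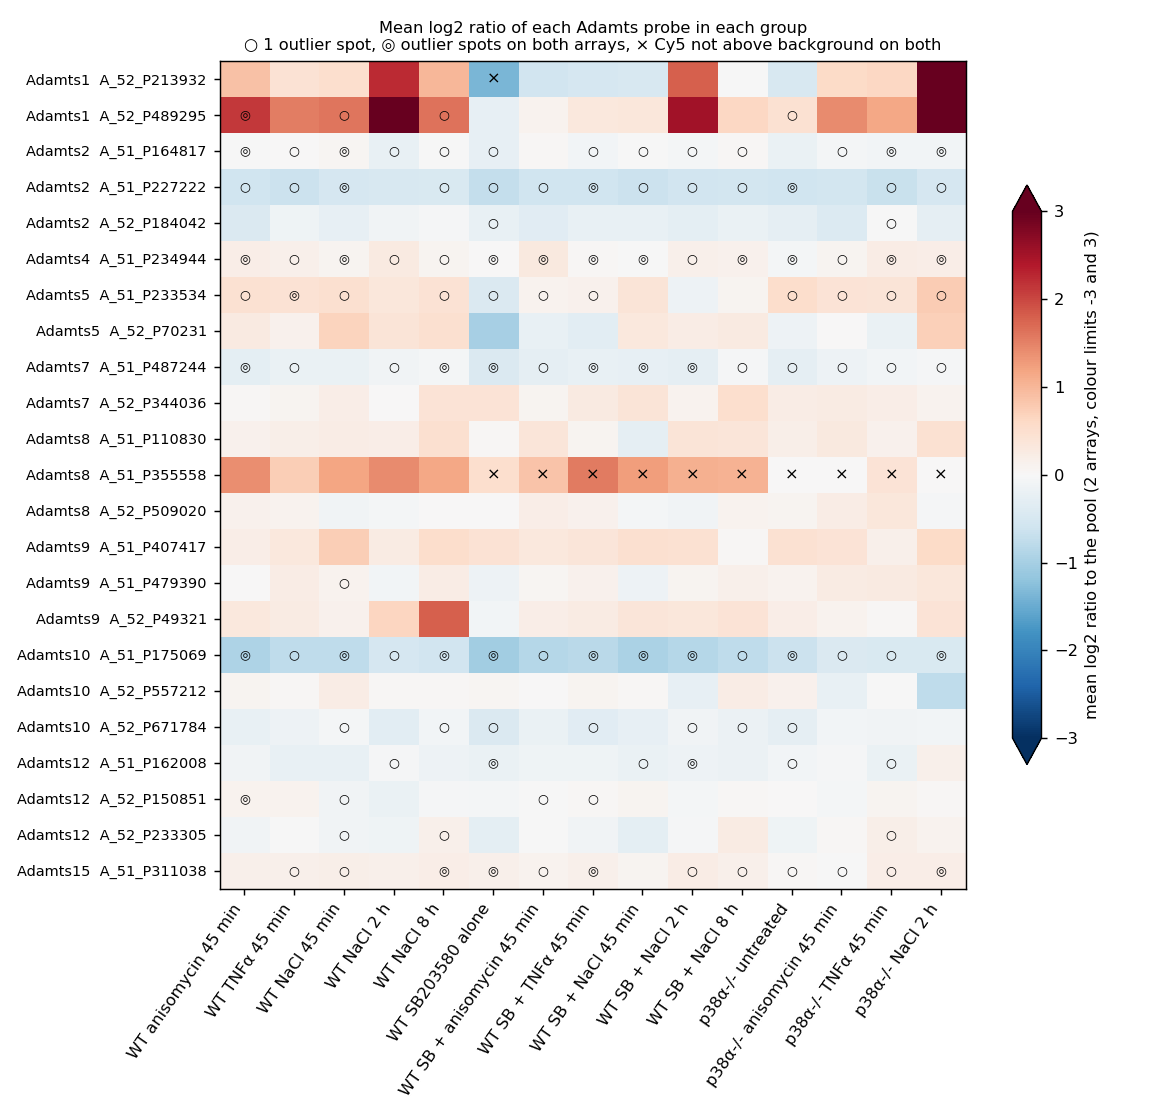
Mean log2 ratio to the untreated wild type pool (colour) of each of the 23 Adamts probes (rows) in each of the 15 groups (columns), 2 arrays per group. Circles mark groups with 1 outlier spot, double circles those with outlier spots on both arrays, and crosses those in which Cy5 was not well above background on either array. The darkest red cells are both Adamts1 probes with NaCl for 2 h, with means up to 4.11 in p38α-/- MEFs.

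Adamts1 was the member with the widest range. It lies on chromosome 16 (GRCm38.p6, chr16:85793827-85803113, minus strand), 55043 bases from Adamts5 (chr16:85858157-85901125). Adamts8 and Adamts15 are neighbours in the same way, 20109 bases apart on chromosome 9. RefSeq promoters, which run from 250 bases before to 50 after a start site, were at hand for 4 of the 10 members, Adamts1, Adamts2, Adamts9 and Adamts12. They were searched on both strands for letters known from stress-responsive promoters. The stretches around 2 of these motifs are printed, TATAAA, held by Adamts1 alone, and TGACG, held by Adamts1, Adamts9 and Adamts12. They were picked with an eye to Adamts1 and Adamts9, the members with the highest ratios under NaCl, so the choice is no result about the motifs. The GC box, which Adamts1 and Adamts9 also hold, is not printed on its own. Capitals mark the motif, and each stretch is read on the strand of its gene. The start is the one of the promoter record. For Adamts9 (chr6:92772699-92944450, minus strand) that start and the stretch lie inside the gene, not before its outer end.
Adamts1, TATAAA, 32 bases before the start, chr16:85803128-85803157: ctcctatgtggcTATAAAggggcggccggg
Adamts1, TGACG, 170 bases before the start, chr16:85803267-85803295: acacccccagagTGACGagctgtggcgtg
Adamts9, TGACG, 218 bases before the start, chr6:92943736-92943764: acctcggggaggTGACGcggacggccacc
Adamts12, TGACG, 205 bases before the start, chr15:11064556-11064584: cctaggagcctcTGACGgctcttactcta
TATAAA, the TATA box, was in 13.6% of the 32851 RefSeq promoters of the same length and in 1 of the 4, that of Adamts1. TGACG, the core letters bound by CREB and ATF factors, was in 20.8% of all promoters and in 3 of the 4. Among those 3 was Adamts12, whose ratios stayed near the pool. The GC box GGGCGG was in 35.7% of all promoters and occurred 3 times in Adamts1, 5 times in Adamts2, where none of the other motifs matched, and once in Adamts9, and the Adamts1 match 25 bases before the start overlaps the stretch printed with the TATA box. The full element TGACGTCA (1.79% of all promoters), TGANTCA of AP-1 (7.81%), TGGAAA of NFAT5 (21.4%) and GGGNNTTCC of NF-κB (5.82%) were in none of the 4 windows.

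In wild type MEFs Adamts1 lay above the pool with every stress, and furthest with NaCl for 2 h. On probe A_52_P489295 the 2 arrays of that group read 3.65 and 3.24, a mean of 3.44 ± 0.29 (SD, n = 2), 10.9-fold the pool. On probe A_52_P213932 they read 2.72 and 1.76, a mean of 2.24 ± 0.68 (SD, n = 2), 4.73-fold the pool. The probes thus differed in size but not in direction, and each of the 10 stressed wild type arrays without inhibitor lay above the pool on each probe, from 1.20 on the former and from 0.25 on the latter.

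Over the time course of osmostress Adamts1 was highest at 2 h. At 45 min A_52_P489295 read 2.03 and 1.20, the second an outlier spot, and A_52_P213932 read 0.76 and 0.25. At 8 h the probes read 1.78 and 1.50, again with an outlier spot on array 2, and 1.27 and 0.74. On both probes the 2 arrays of the 2 h group lay above all 4 arrays of the other times. The mean difference of 2 h minus 45 min was 1.83 ± 0.31 (SD of the 2 array pairs) on A_52_P489295 and 1.74 ± 0.32 on A_52_P213932, and that of 8 h minus 2 h was -1.81 ± 0.09 and -1.24 ± 0.31. The fit to all genes given below called neither difference, although both were called with the replicate number as a block. No share of all genes without overlap between times is at hand.

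Anisomycin, a translation inhibitor that activates stress kinases, was given at a dose that blocks protein synthesis only in part. Anisomycin and the cytokine TNFα gave smaller ratios at 45 min. With anisomycin A_52_P489295 read 2.38 and 1.85, both outlier spots, and A_52_P213932 read 1.16 and 0.62. With TNFα the probes read 1.82 and 1.23, and 0.50 and 0.38. The anisomycin arrays lay above both TNFα arrays on each probe, narrowly on A_52_P489295, and both stresses overlapped NaCl at 45 min.

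**Figure D2:**
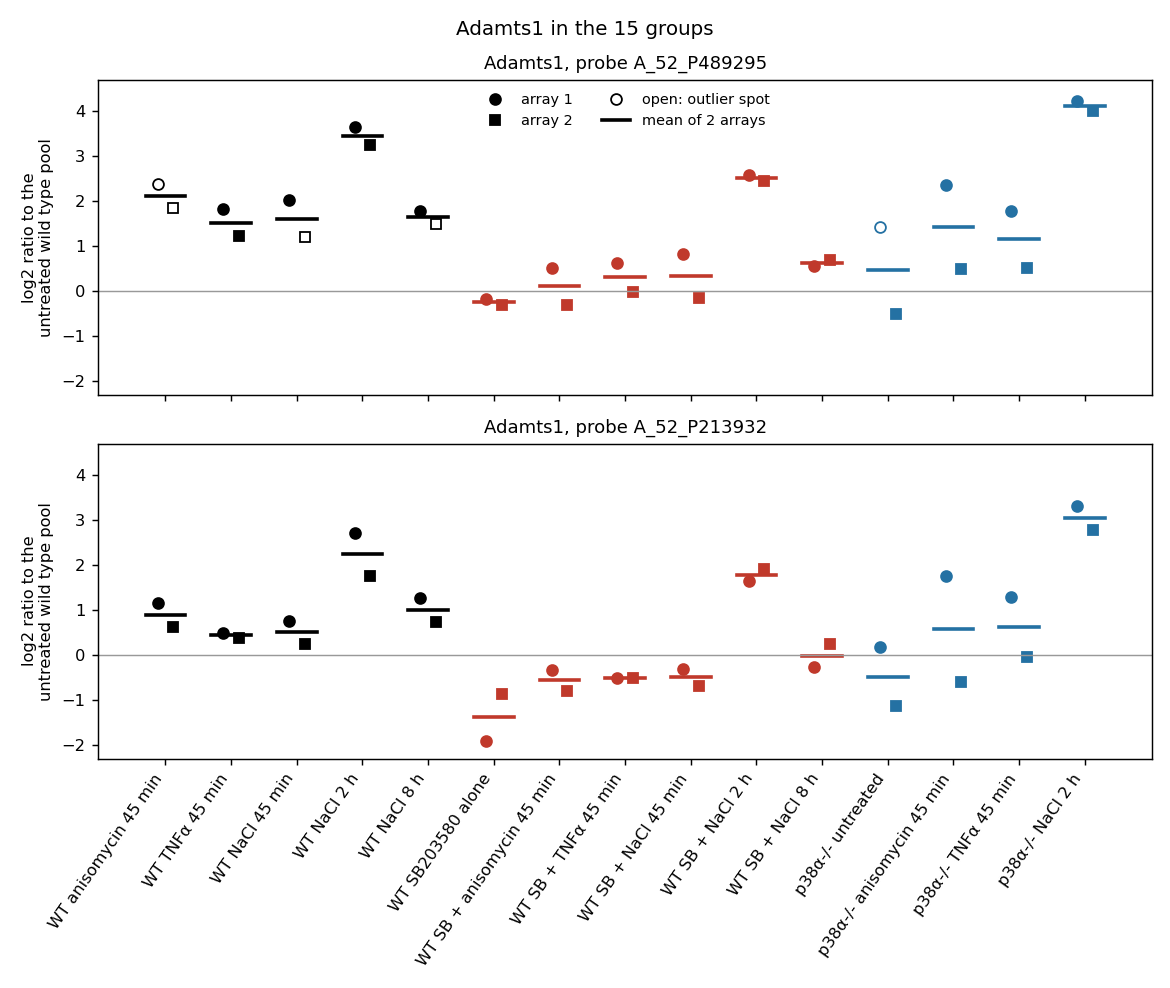
Log2 ratio of Adamts1 to the untreated wild type pool on probes A_52_P489295 (top) and A_52_P213932 (bottom) in the 15 groups, with wild type groups in black, SB203580 groups in red and p38α-/- groups in blue. Each point is 1 array (circle array 1, square array 2, open for an outlier spot) and the bar is the mean of 2. The p38α-/- NaCl 2 h arrays are the highest on both probes (4.22 and 4.00, 3.33 and 2.78), and the SB203580 alone group has the lowest mean.

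SB203580 alone left Adamts1 at or below the pool. A_52_P489295 read -0.17 and -0.31 in that group. A_52_P213932 read -1.91 and -0.85, with Cy5 not well above background on either array. For the mean of the 2 arrays this sets a bound of at least 2.52-fold lower than the pool, which array 2 alone does not reach. On both probes this was the lowest mean of the 15 groups.

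Under stress the arrays with SB203580 lay below those without it on both probes, except for NaCl at 2 h on A_52_P213932. With anisomycin and SB203580 the probe A_52_P489295 read 0.52 and -0.30, with TNFα 0.63 and -0.02, and with NaCl for 45 min 0.82 and -0.14. On A_52_P213932 the same groups read -0.34 and -0.79, -0.52 and -0.50, and -0.30 and -0.68, the last group with 1 array not well above background. All 6 of these arrays therefore lay below the pool on A_52_P213932, whereas 3 of 6 did on A_52_P489295. The mean without inhibitor was higher 4.02-fold with anisomycin (2 of its spots outliers), 2.33-fold with TNFα and 2.43-fold with NaCl at 45 min on A_52_P489295, and 2.74-fold, 1.93-fold and 1.99-fold on A_52_P213932.

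With NaCl for 2 h Adamts1 stayed above the pool with SB203580 on all arrays of both probes. A_52_P489295 read 2.59 and 2.44, 5.71-fold the pool, and A_52_P213932 read 1.66 and 1.91, 3.44-fold the pool, so the mean without inhibitor was 1.91-fold and 1.38-fold higher. On the former probe the arrays with and without inhibitor did not overlap, and on the latter they did. At 8 h the probes read 0.55 and 0.68, and -0.26 and 0.24, below both arrays without inhibitor on each probe, with a 2.03-fold and a 2.02-fold higher mean without it. In all, the arms did not overlap in 9 of the 10 combinations of probe and stress, but the 2 probes were read on the same arrays. By the average over probes, 10.0% to 14.7% of all genes lay lower with SB203580 without overlap, depending on the stress. By that average the Adamts1 arms overlapped with NaCl at 45 min. Since arrays of 1 number were scanned together, the difference can also be taken within each scan batch, where SB203580 minus wild type lay between -2.15 and -0.80 on A_52_P489295 and between -1.53 and 0.15 on A_52_P213932, the last being array 2 of NaCl at 2 h.

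Adamts1 with NaCl for 2 h and SB203580 can also be set against SB203580 alone instead of the pool. The mean difference was 2.75 (6.74-fold) on A_52_P489295, the same on both array pairs to 2 decimals, beside 3.44 for wild type against the pool. For the other stresses the mean difference to SB203580 alone lay between 0.35 and 0.86 on that probe. On A_52_P213932 SB203580 alone was not well above background, so no such difference is given. The average over both probes, which holds those dim spots, gave 2.96 beside 2.84 for wild type against the pool. A dye effect enters the values against the pool but not the differences between groups. Whether the responses with and without inhibitor differ was not tested.

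**Figure D3:**
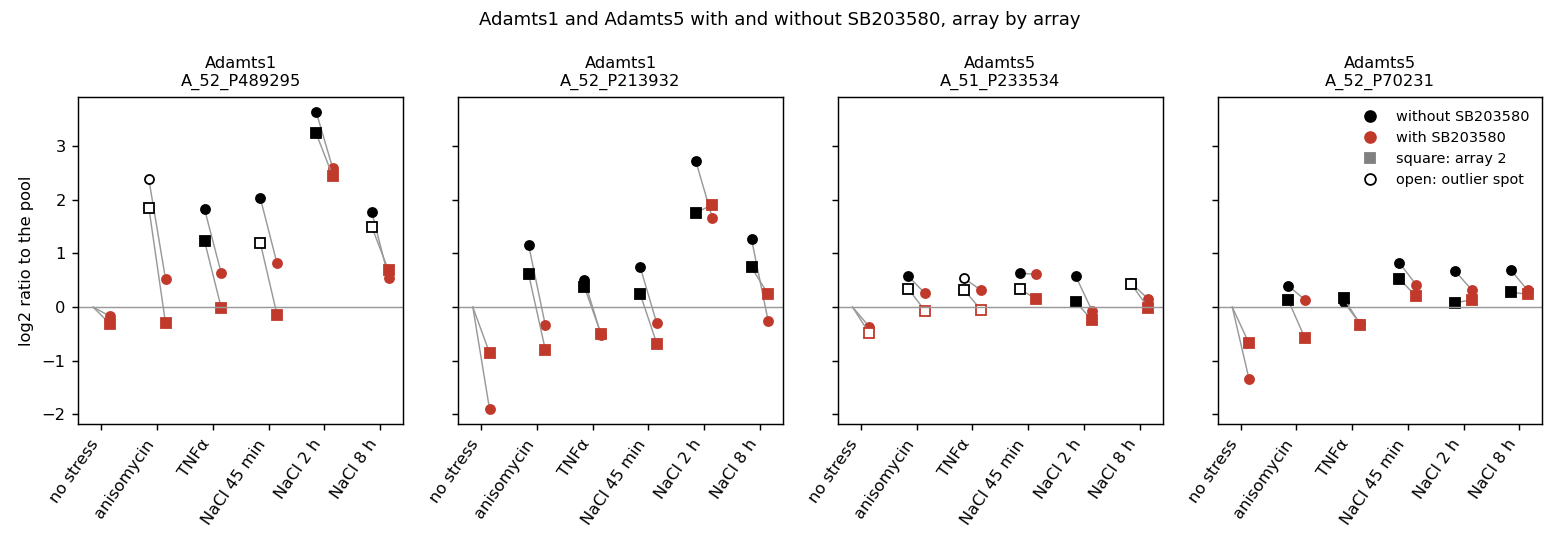
Log2 ratio to the pool of the Adamts1 and Adamts5 probes without (black) and with (red) SB203580, for no stress and the 5 stresses (x axis). Circles are array 1, squares array 2, open symbols outlier spots, and grey lines join arrays of the same number. The no-stress lines start at 0, the pool itself. On the Adamts1 probe A_52_P489295 all 10 stressed pairs fall with SB203580, and on A_52_P213932 9 of 10 do.

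In p38α-/- MEFs Adamts1 differed widely between the 2 arrays of a group, except with NaCl. Untreated, A_52_P489295 read 1.43, an outlier spot, and -0.50, and A_52_P213932 read 0.17 and -1.13. With anisomycin the probes read 2.36 and 0.49, and 1.76 and -0.59, and with TNFα 1.79 and 0.51, and 1.28 and -0.05. Array 1 was the higher one each time, and the arrays numbered 1 and 2 belong to different scan batches, so culture and scan batch cannot be told apart in this spread. For both stresses the p38α-/- arrays overlapped those of wild type MEFs on both probes, so no direction is read from them.

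With NaCl for 2 h Adamts1 read higher on both p38α-/- arrays than on both wild type arrays, on each probe. A_52_P489295 read 4.22 and 4.00, a mean of 4.11 ± 0.16 (SD, n = 2), and A_52_P213932 read 3.33 and 2.78, a mean of 3.05 ± 0.38. These were the highest arrays of the whole set on each probe, and the mean was 1.59-fold and 1.75-fold that of wild type MEFs. The 2 probes were read on the same arrays. By the average over probes the difference was 0.74, which the fit to all genes given below did not call. By that average 20.0% of all genes lay higher in p38α-/- MEFs without overlap. Within the scan batch that holds both genotypes, p38α-/- array 1 exceeded wild type array 2 by 0.98 and 1.56, while with anisomycin it exceeded it by 0.51 and 1.14 and with TNFα by 0.57 and 0.90. Against untreated p38α-/- MEFs the NaCl response came to 3.64 ± 1.21 (12.5-fold) and 3.53 ± 0.54 (11.6-fold), and those to anisomycin and TNFα to between 0.68 and 1.09.

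Ranked by mean, both probes placed NaCl for 2 h first in p38α-/- MEFs, then in wild type MEFs, then with SB203580. Of the 14 neighbouring pairs in that order, the arrays of 4 did not overlap on each probe, and on both probes the p38α-/- and wild type NaCl 2 h groups were among them. The other groups run into each other.

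The genes whose group means followed those of Adamts1 most closely were named by Pearson's r over the 15 group means, among 272 genes that are no members, were measured on both arrays of all groups and had means that ranged over at least 2. They were Ier5 (r = 0.93), Myc (0.89), Klf4 (0.86), Bdnf (0.85) and Six4 (0.85), against a median r of -0.04 and a 95th percentile of 0.77 over the 272 genes. Ier5 is an immediate early gene, Myc, Klf4 and Six4 encode transcription factors and Bdnf a neurotrophin. All 5 had their highest mean in p38α-/- MEFs with NaCl for 2 h, from 2.06 for Bdnf to 3.03 for Klf4. This follows in part from their choice by r to Adamts1. For Ier5 that mean was 2.76 beside 2.75 in wild type MEFs. With SB203580 at 2 h Myc read 1.97 beside 1.97 in wild type MEFs, and Bdnf 0.35 beside 1.66. The groups share the pool and the scan batches, so r is a description.

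Adamts9, a versican-cleaving protease also involved in transport from the endoplasmic reticulum, had its highest ratio last. On probe A_52_P49321 it read 0.23 and 0.03 at 45 min of NaCl, 0.86 and 0.42 at 2 h and 1.49 and 2.07 at 8 h, a mean of 1.78 ± 0.41 (SD, n = 2) at 8 h. The arrays of the 3 times did not overlap, for which no share of all genes is at hand. The level was highest at 8 h, when Adamts1 was lower than at 2 h. Anisomycin gave 0.37 and 0.24 and TNFα 0.33 and 0.19.

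With SB203580 the level of Adamts9 at 8 h was lower on this probe. It read 0.23 and 0.60, a mean of 0.41 ± 0.27 (SD, n = 2), 2.58-fold lower than without inhibitor, and the difference was -1.26 and -1.47 within the 2 scan batches. At 45 min and 2 h it read from 0.18 to 0.54. In p38α-/- MEFs, which have no 8 h group, it read 0.32 and 0.09 untreated and 0.56 and 0.28 with NaCl for 2 h, which overlap the wild type arrays.

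The other Adamts9 probes gave smaller values at 8 h. A_51_P407417 read 0.60 and 0.47 at 8 h, within the 1.06 and 0.42 it read at 45 min, and 0.24 and -0.16 at 8 h with SB203580, again without overlap between the arms. Without stress this probe read from 0.26 to 0.59 with SB203580 alone and from 0.36 to 0.56 in untreated p38α-/- MEFs. A_51_P479390 stayed between -0.39 and 0.46 on all 30 arrays, and its arms overlapped at 8 h. The average over the 3 probes was 0.85 ± 0.10 (SD, n = 2) at 8 h and 0.20 ± 0.12 with SB203580, a difference of -0.65. In wild type MEFs without inhibitor this average was 0.34 at 45 min and 0.27 at 2 h, beside 0.26 in untreated p38α-/- MEFs.

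**Figure D4:**
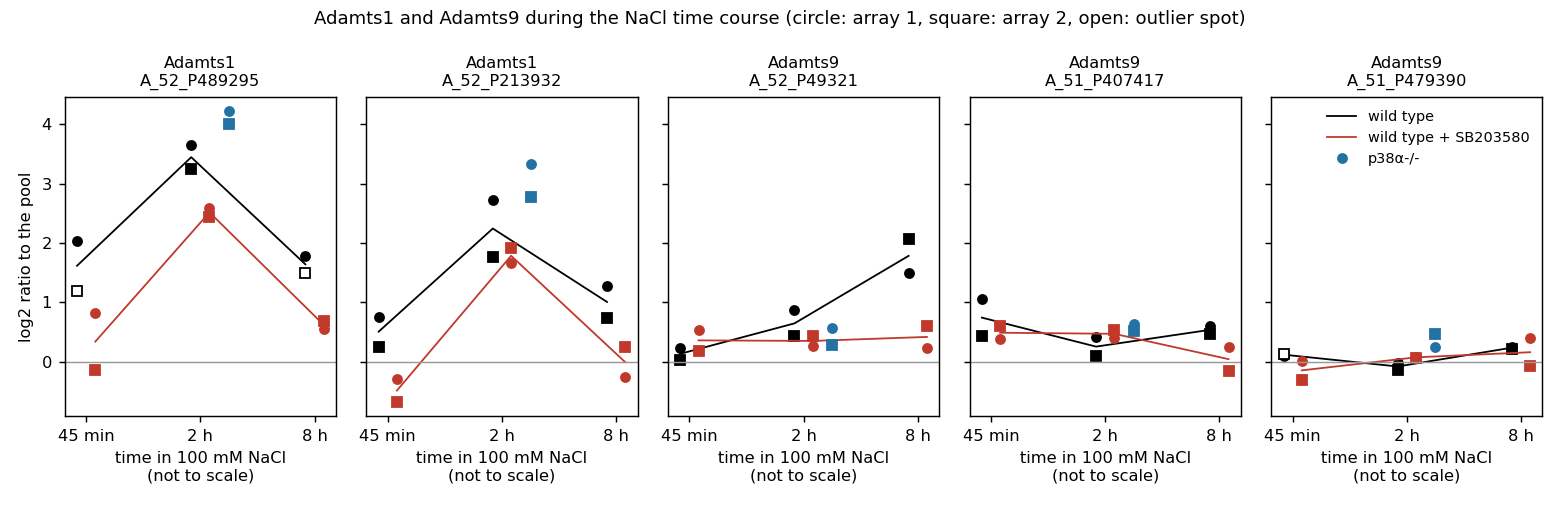
Log2 ratio to the pool at 45 min, 2 h and 8 h of NaCl (x axis, not to scale) for the 2 Adamts1 probes and the 3 Adamts9 probes. Points are arrays (circle array 1, square array 2, open for an outlier spot), lines join the means of wild type MEFs (black) and wild type MEFs with SB203580 (red), and p38α-/- MEFs (blue) were measured at 2 h. Adamts1 peaks at 2 h, and the Adamts9 probe A_52_P49321 is highest at 8 h, at 1.49 and 2.07.

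Adamts5, the neighbour of Adamts1 and an aggrecanase, showed small positive ratios under stress and its lowest ones with SB203580 alone. On probe A_52_P70231 SB203580 alone read -1.34, with Cy5 not well above background, and -0.67, and on A_51_P233534 it read -0.37 and -0.49, the second an outlier spot. All 10 stressed wild type arrays without inhibitor lay above the pool on both probes, from 0.08 to 0.82 on A_52_P70231 and from 0.10 to 0.63 on A_51_P233534, where 12 of 30 arrays hold outlier spots. The highest of these was NaCl at 45 min on A_52_P70231, with 0.82 and 0.53. For arrays above the pool no share of all genes is at hand. A_51_P233534 also lay above the pool without stress in untreated p38α-/- MEFs, at 1.06, an outlier spot, and 0.02.

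With SB203580 and stress the Adamts5 arrays lay lower without overlap in 6 of 10 combinations of probe and stress, narrowly for TNFα on A_51_P233534. The 2 probes were read on the same arrays. By the average over probes, 10.0% to 14.7% of all genes lay lower without overlap, depending on the stress. Within scan batches 19 of 20 differences were negative, for which no share of all genes is at hand. The exception was 0.05 for array 2 of NaCl at 2 h on A_52_P70231, and the lowest was -0.70. In p38α-/- MEFs array 1 exceeded array 2 in all 4 groups on both probes, for example 1.25 and 0.19 with NaCl for 2 h and 0.52 and -0.81 untreated on A_52_P70231, and with NaCl the arrays overlapped those of wild type MEFs.

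The remaining proteases of the proteoglycan group gave little to compare. For Adamts4 the 1 probe held outlier spots on 25 of 30 arrays and no group kept both arrays, and its ratios lay between -0.24 and 0.39 with those spots included. For Adamts15 the probe held outlier spots on 16 arrays, 3 groups kept both arrays, and their means lay between 0.08 and 0.15. Of the 3 Adamts8 probes, A_51_P355558 was not well above background in Cy5 on 25 arrays and in Cy3 on 28, and its ratios between 0 and 3.12 rest on replaced signals. The means of Adamts8 over its probes, from 0.08 to 0.59, include that probe, and they are not read further. The other Adamts8 probes lay between -0.65 and 0.70 and between -0.19 and 0.56.

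Adamts2, the procollagen protease, lay below the pool on average in all 13 groups that kept both arrays, with means from -0.54 to -0.12. The lowest was wild type MEFs with anisomycin, where the average over probes that were not outliers read -0.72 and -0.36, the former resting on A_52_P184042 alone. Its probes were unlike each other. A_51_P227222 was below the pool on all 30 arrays, from -0.94 to -0.26 with 16 outlier spots included, treated or not, while A_51_P164817 lay between -0.39 and 0.19. Since no dyes were swapped, a shift shared by all arrays cannot be told apart from a dye effect of the probe.

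The same shift held for Adamts10, whose probe A_51_P175069 read below the pool on all 30 arrays, from -1.21 to -0.07, with outlier spots on 24 of them. On its probe A_52_P557212 p38α-/- MEFs with NaCl for 2 h read -0.39 and -1.11, array 2 not well above background in Cy5, below the -0.03 and 0.10 of wild type MEFs, and the third probe went the other way, with -0.19 and 0.03 against -0.43 and -0.21. Adamts7 and Adamts12, the proteases of cartilage oligomeric matrix protein, stayed close to the pool, with group means from -0.06 to 0.45 for Adamts7 and from -0.19 to 0.09 for Adamts12. On probe A_52_P344036 Adamts7 read 0.18 and 0.66 at 8 h of NaCl and 0.19 and 0.79 with SB203580 as well, so the arms overlapped. Adamts12 read higher without overlap in p38α-/- than in wild type MEFs with NaCl for 2 h on all 3 of its probes, by 0.17, 0.22 and 0.23. The 3 probes were read on the same arrays, and the fit to all genes given below did not call the difference. By the average over probes, 20.0% of all genes lay higher without overlap in this comparison.

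Counted over the members by the limma fit to all genes, with a call at an adjusted p under 0.05, 6 of 42 member values under wild type stress were called. They were Adamts9 up with NaCl at 45 min, 2 h and 8 h, Adamts1 up with NaCl at 2 h and 8 h, and Adamts2 down with anisomycin. The share of all genes called in either direction was 11.9% with anisomycin, 10.8% with TNFα and 9.80%, 9.93% and 22.2% with NaCl at 45 min, 2 h and 8 h. Adamts1 with anisomycin rests on 1 probe in this fit, because both spots of the other are outliers, as it does on array 2 of NaCl at 45 min and 8 h and on array 1 of untreated p38α-/- MEFs. With the replicate number, which follows the scan batches, as a block, 17 of 42 were called, Adamts1 in all 5 stresses among them and Adamts8, which includes the dim probe, in 4, beside 21.2%, 18.1%, 20.3%, 16.1% and 28.1% of all genes. The median over the members tested was 0.14 with anisomycin, 0.09 with TNFα and 0.20, 0.15 and 0.42 with NaCl, beside medians of all genes between 0 and 0.01. By a second rule, a mean at least 2.5-fold the pool, 1 member value was up, Adamts1 with NaCl at 2 h, beside 0.611%, 0.534%, 0.497%, 0.584% and 1.18% of all genes in the same order of stresses.

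Without stress, 2 of 15 member values were called, Adamts5 down with SB203580 alone (26.5% of all genes called) and Adamts9 up in untreated p38α-/- MEFs (14.9%), and with the block 4 were called, Adamts1 and Adamts7 with SB203580 alone in addition, beside 35.9% and 21.2%. Of 40 differences between SB203580 and wild type MEFs under stress 1 was called, Adamts9 at 8 h of NaCl, beside 0.212% of all genes at 8 h and 0.0272%, 0, 0 and 0 for the other stresses. Of 23 differences between p38α-/- and wild type MEFs 0 were called, beside 1.33%, 0.414% and 0.720% of all genes with anisomycin, TNFα and NaCl. The same counts came out with the replicate block, when the shares of all genes were 0.0409%, 0.00697%, 0, 0.0179% and 0.597% for SB203580 and 4.06%, 1.31% and 2.09% for p38α-/- MEFs.

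Against the unstressed group of the same arm, 2 of 58 values were called, Adamts1 up with NaCl for 2 h in p38α-/- MEFs and with SB203580. The shares of all genes were 0.0848%, 0.0781% and 1.14% in p38α-/- MEFs with anisomycin, TNFα and NaCl, and 0.0140%, 0.0984%, 0.0435%, 2.95% and 7.71% with SB203580 and the 5 stresses. The averages of Adamts1 and Adamts5 with SB203580 alone hold spots not well above background. With the block 6 were called, beside 0.0908%, 0.104% and 2.32% and beside 0.0140%, 0.155%, 0.218%, 5.22% and 11.0%, adding Adamts1 with SB203580 and NaCl for 8 h and Adamts5 with SB203580 and NaCl at each time. In the time course 1 of 16 was called, Adamts9 up from 2 h to 8 h, beside 0.0386% of all genes from 45 min to 2 h and 7.77% from 2 h to 8 h, and 3 with the block, which added Adamts1 in both intervals, beside 0.131% and 11.2%.

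These averages rest on whichever probes were no outliers on an array, so non-overlap of 2 groups can come from different probes on their arrays. By the average over probes, member arrays with SB203580 lay wholly below those without for 2 members with anisomycin (Adamts1 and Adamts10, 10.0% of all genes), 2 with TNFα (Adamts1 and Adamts5, 10.4%), 1 with NaCl at 45 min (Adamts5, 10.2%), 1 at 2 h (Adamts1, 13.3%) and 4 at 8 h (Adamts1, Adamts2, Adamts5 and Adamts9, 14.7%), of 8 members tested each time. They lay wholly above for Adamts2 with anisomycin (13.8%), Adamts7 and Adamts10 with TNFα (18.7%), 0 members at 45 min (16.6%), Adamts12 at 2 h (14.2%) and 0 members at 8 h (14.0%). For p38α-/- MEFs 0 of 8 lay below with anisomycin (17.4%), 2 of 7 with TNFα (Adamts5 and Adamts9, 21.1%) and 2 of 8 with NaCl (Adamts8 and Adamts10, 18.9%), and 0 lay above with anisomycin (23.0%), 0 with TNFα (19.5%) and 2 with NaCl (Adamts1 and Adamts12, 20.0%). Single probes did not bear out several of these. All 3 probes of Adamts2 and all 3 of Adamts10 overlapped between the arms with anisomycin. With TNFα 2 Adamts10 probes overlapped and the other was lower with SB203580, by 0.20, the reverse of the average. Adamts8 with NaCl in p38α-/- MEFs rests on A_51_P355558, which was not well above background there in either channel, and A_51_P110830 was higher in p38α-/- MEFs, by 0.27.

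Genes that work with these proteases were followed by role, 54 listed and 46 on the array, as other ADAMTS genes, ADAMTS-like proteins, substrates, and inhibitors, clearance receptors and activators. Of the 6 other ADAMTS genes on the array Adamts18 rose with TNFα, reading 0.50 and 0.53 (limma, adjusted p = 0.0466). It rose also with NaCl at 2 h, reading 0.93 and 0.35 (limma, adjusted p = 0.0170), where Adamts13 was called below the pool. The shares of all genes called were 10.8% with TNFα and 9.93% with NaCl at 2 h. Adamts13 was also called below the pool without stress, with SB203580 alone and in untreated p38α-/- MEFs. None of the 2 or 3 ADAMTS-like genes tested was called under wild type stress.

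Of the substrates, 9 to 13 of 23 were tested under each wild type stress. With anisomycin 1 rose and 2 fell, with TNFα 1 rose, and with NaCl 1 rose at 45 min, 2 rose and 1 fell at 2 h, and 1 rose and 1 fell at 8 h, beside the 11.9%, 10.8%, 9.80%, 9.93% and 22.2% of all genes called in these comparisons. Collagen genes, whose procollagens Adamts2 trims, were those that fell with anisomycin, Col1a1 at -0.52 and -0.28 (limma, adjusted p = 0.0442) and Col3a1 at -0.73 and -0.54 (limma, adjusted p = 0.0284), although the ratio of Col1a1 turned to 0.21 in the series matrix and to 0.0645 with outlier spots kept. Thbs2, a matrix thrombospondin, rose with anisomycin, reading 0.54 and 0.41 (limma, adjusted p = 0.0170), and with NaCl at 2 h, reading 0.92 and 0.62 (limma, adjusted p = 0.000648). Fbn2, a fibrillin, fell with NaCl at 2 h, reading -0.82 and -0.55 (limma, adjusted p = 0.00428). The basement membrane gene Nid1 rose with NaCl at 8 h, reading 1.00 and 1.14 (limma, adjusted p = 0.0149). Tfpi2, a protease inhibitor of the matrix that Adamts1 is known to cleave, rose with TNFα, reading 0.44 and 0.95 (limma, adjusted p = 0.0150). It also lay above the pool with SB203580 alone (0.57 and 0.88, limma, adjusted p = 0.00544) and in untreated p38α-/- MEFs (0.78 and 0.40, limma, adjusted p = 0.0269).

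Of the inhibitors, receptors and activators, 6 to 9 of 14 were tested under wild type stress and 0 were called except at 8 h of NaCl, when Cst3 and Furin rose, 2 of 9 beside 22.2% of all genes. Furin, the convertase that removes ADAMTS propeptides, read 0.93 and 1.49 at 8 h (limma, adjusted p = 0.00027) and 0.11 and -0.05 at 2 h, a difference of 1.18 (limma, adjusted p = 0.0117). With SB203580 at 8 h it read 0.33 and 0.74, and that difference of -0.67 missed the threshold (limma, adjusted p = 0.771).

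Among the differences between arms under stress 1 gene of the lists was called. Col1a1 was higher in p38α-/- MEFs with NaCl for 2 h, reading 0.97 and 0.81, than in wild type MEFs, reading 0.10 and -0.05 (difference 0.86, limma, adjusted p = 0.0272), and higher than in untreated p38α-/- MEFs, reading -0.19 and -0.08 (difference 1.03, limma, adjusted p = 0.00592).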

How the data were processed

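Total RNA of 15 groups of MEFs was measured on 30 two-colour Agilent 44K arrays, 2 per group. The authors read spot intensities from the scans in Feature Extraction of Agilent (8.1.1.1 in the file headers, 9.1 in the labels), which balanced the dyes by linear and LOWESS scaling without subtracting local background, and the deposited log10 ratios are of processed Cy5 over Cy3. A deposited series matrix, on the log2 scale as judged from its values, served as an alternative.

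Control and outlier spots were left out, ratios were turned to log2, and spots of a probe and probes of a gene were averaged. Values given for 1 probe keep outlier spots, named as such. R 4.3.3 with limma 3.58.1 fitted 15 group means to 30 arrays (20719 genes, 15 residual degrees of freedom), with Benjamini-Hochberg adjustment over all genes measured on every array compared. The script was tested on simulated data. Figures and counts used Python 3.11.15.

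The members and the gene lists were chosen with earlier results of these data known. Named beside the 10 members were at most 8 list genes called in a wild type stress, or in a difference between arms, with the largest differences, and the 5 genes with the highest r to Adamts1. The difference between the 2 arrays of a group correlated over genes at more than 0.1 in every pair of groups of 1 genotype (55 of 55 wild type, 6 of 6 p38α-/-), so the replicate numbers pair arrays within a genotype. Alternatives were normexp and loess, the brightest probe, the series matrix, outlier spots kept, a filter on dim probes, the replicate block, the scan batch, wild type arrays only, other thresholds, each array left out, and, chosen after seeing the data, single probes. With 2 arrays per group the number of arrays limits the precision. RefSeq (GRCm38.p6) gave positions and promoters.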

Additional observations from a re-analysis of the deposited data

Results flagged for a closer look

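Adamts9 was picked out because its response to NaCl at 8 h differed between wild type MEFs with and without SB203580, by -0.65 on the log2 scale (0.20 ± 0.12 with and 0.85 ± 0.10 without, SD, n = 2 each), a difference called by limma over all genes, and given here as a description because the member was chosen with its ratios known. By probe the difference was -1.37 on A_52_P49321, -0.49 on A_51_P407417 and -0.08 on A_51_P479390.

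Col1a1 was picked out because its ratio with NaCl for 2 h differed between p38α-/- and wild type MEFs, by 0.86 on the log2 scale (limma, adjusted p = 0.0272), with both p38α-/- arrays above both wild type arrays.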

How the results depend on the processing

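Counts of members called by limma changed with the processing as follows. Under wild type stress, where 6 were called, 11 were called with the series matrix, 11 with outlier spots kept, 17 with the replicate block, 17 with the scan batch as a term and 18 with single probes and outlier spots kept. Without stress, 2 became 5, 5, 4, 4 and 9 under the same settings, 4 with single probes and 0 with the brightest probe. Of the differences for p38α-/- MEFs, 0 became 1 with the scan batch, Adamts5 with NaCl. Within an arm, 2 became 1 with the brightest probe and 6 with the block and with the scan batch, and in the time course 1 became 3 with either, and 2 with normexp, with wild type arrays only and at an adjusted p under 0.1. At 2.5-fold, 1 became 3 with the series matrix, 3 with the brightest probe, 2 with outlier spots kept, 5 with single probes, 8 with both of the latter and 2 at 2-fold. Calls of list genes, 30 over all comparisons, became 121 with the series matrix, 97 with outlier spots kept and 146 with single probes and outlier spots kept. Col1a1 with anisomycin turned from -0.40 to 0.21 with the series matrix and to 0.0645 with outlier spots kept. The causes were not tested.

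With 1 array left out at a time, a lone array being assumed to vary like the other groups, the counts ranged from 3 to 6 under wild type stress (3 without array 1 of anisomycin), from 1 to 2 without stress (1 without array 1 of SB203580 alone or either array of untreated p38α-/- MEFs), from 0 to 1 for SB203580 under stress, from 0 to 0 for p38α-/- MEFs, from 1 to 2 within an arm (1 without array 1 of SB203580 alone), from 0 to 1 in the time course (0 without array 2 of NaCl at 2 h or at 8 h), from 1 to 2 at 2.5-fold (2 without array 2 of NaCl at 45 min or at 8 h) and from 23 to 32 for the lists. The call of Adamts9 for SB203580 at 8 h was lost without array 2 of NaCl at 8 h or without either array of SB203580 with TNFα, with NaCl for 2 h or with NaCl for 8 h.

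The 29 values of Adamts1 in its comparisons and of other members where called were computed 307 times under these settings. Of these 287 stayed within the spread between arrays and 20 moved further, and 7 changed sign, all for Adamts1 in p38α-/- against wild type MEFs with anisomycin (main 0.11, from -0.94 to 1.17) or TNFα (main -0.10, from -0.75 to 0.75). With outlier spots kept, 10 of 121 group means of members changed sign, in Adamts5, Adamts7 and Adamts10. Of the called values of list genes 80 kept their call and direction, 25 lost the call and 2 changed sign. The replicate block moved no other count by over 1.5 times, and the fit to wild type arrays only was not run for comparisons with p38α-/- arrays. Signal over background limits A_52_P213932 of Adamts1 and A_52_P70231 of Adamts5 with SB203580 alone, and A_51_P355558 of Adamts8 throughout.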
